A study of Mus musculus with 12 samples.

Results

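The 7 genes Foxp3, Ikzf2, Ikzf4, Lrrc32, Gpr83, Nrp1 and Entpd1 are characteristic of regulatory T cells, and their rows were taken by symbol from a count table of 25078 mouse genes. RNA had been sequenced from donor T cells recovered from the liver on day 6 after allogeneic hematopoietic cell transplantation (HCT), in which T cells of 1 mouse strain attack the tissues of another. Recipients were irradiated BALB/c mice that received T cell-depleted marrow from wild-type (WT) C57BL/6 mice together with CD90.2+ T cells from 1 of 3 kinds of C57BL/6 donor. WT donors carried no deletion. STAT3-/- donors carried floxed Stat3 alleles and a CD4-Cre transgene, which removes Stat3 from both CD4+ and CD8+ T cells because each passes through a Cd4-expressing stage in the thymus. STAT3-/-PD-1-/- donors carried the same floxed Stat3 alleles and CD4-Cre on a germline PD-1 knockout. Liver lymphocytes were sorted as H-2Kb+TCRβ+ cells that were CD4+ or CD8+, which gave 6 groups of 2 libraries, each library a pool of recipients. Because the marrow donors were also H-2Kb+, the gate marks both donor sources, and no PD-1 single knockout was among the groups. Library depth was even, from 21676125 to 24551477 counts with a median of 23442480.

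Regulatory T cells restrain other T cells and are a recognized brake on graft-versus-host disease. In the study of this model, anti-CD25 antibody depleted Foxp3+ cells in spleen and liver. The acute disease caused by WT or STAT3-/- T cells showed no obvious change, and STAT3-/-PD-1-/- T cells were not part of that experiment. FOXP3 is the transcription factor that fixes their identity. IKZF2 (Helios) and IKZF4 (Eos) are zinc finger factors of the Ikaros family that act with it. At the surface, LRRC32 (GARP) holds latent TGF-β, GPR83 is an orphan G protein-coupled receptor, NRP1 (neuropilin-1) is a semaphorin and VEGF coreceptor, and ENTPD1 (CD39) hydrolyzes extracellular ATP, the first step toward adenosine. None of these genes is exclusive to regulatory T cells, since activated and exhausted conventional T cells also transcribe Entpd1, Nrp1 and Ikzf2.

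The RNA that changed most among the 7 genes was that of Foxp3, which lies on the X chromosome of mm10 at chrX:7579676-7595243 on the plus strand. The RefSeq promoter table (GRCm38.p6, which shares its coordinates with mm10) held entries for 4 of the 7 genes, namely Foxp3, Gpr83, Nrp1 and Entpd1. The Foxp3 windows are shown because one of the deleted genes encodes a STAT factor. Each window runs from 250 bases before to 50 bases after a start site, and capitals mark a match to TTCNNNGAA, the inverted repeat that STAT dimers bind, which reads the same on both strands. The windows are chrX:7579426-7579725 and chrX:7580233-7580532, both on the plus strand, and the start of the first is the gene start used in the count table.
Foxp3 upstream start: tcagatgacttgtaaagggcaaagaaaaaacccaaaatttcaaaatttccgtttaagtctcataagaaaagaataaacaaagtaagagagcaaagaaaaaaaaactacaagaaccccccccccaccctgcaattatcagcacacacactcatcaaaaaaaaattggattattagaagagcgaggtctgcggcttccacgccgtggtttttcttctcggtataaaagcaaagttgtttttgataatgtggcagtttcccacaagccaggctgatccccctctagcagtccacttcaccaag
Foxp3 second start: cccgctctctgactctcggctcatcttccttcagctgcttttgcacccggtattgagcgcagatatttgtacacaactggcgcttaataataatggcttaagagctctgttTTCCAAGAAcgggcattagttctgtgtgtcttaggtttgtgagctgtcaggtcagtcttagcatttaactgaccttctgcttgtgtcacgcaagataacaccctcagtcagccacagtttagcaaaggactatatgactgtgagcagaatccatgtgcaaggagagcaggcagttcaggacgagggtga
The second window held 1 match, beginning 139 bases before its start site, and the first held none. The windows of Gpr83, Nrp1 and Entpd1 held no match. Of all 32851 promoter windows, 8.3% held at least 1, so a match of this kind is a description of the letters only.

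The deleted genes and the sorted lineages were checked first. Stat3 RNA stood at 368.6 and 467 CPM (a count relative to its library's total, scaled for library composition by the TMM method over all 12 libraries) in WT CD4+ T cells, at 139.9 and 164 CPM in STAT3-/- cells and at 156.8 and 219 CPM in STAT3-/-PD-1-/- cells. The CD8+ libraries read alike, with 397.1 and 384.3 CPM in WT, 148.8 and 135.5 CPM in STAT3-/- and 153.7 and 235 CPM in STAT3-/-PD-1-/- cells. Every knockout library was therefore below every WT library. The 8 knockout libraries still held 135.5 to 235 CPM of Stat3, and where these reads came from was not tested. Pdcd1, which encodes PD-1, was lowest in STAT3-/-PD-1-/- cells, at 55.1 and 26.0 CPM in CD4+ and 93.6 and 65.6 CPM in CD8+ libraries, against 235.2 to 454.4 CPM in the other 8 libraries. Cd4 RNA was between 1242 and 1887 CPM in CD4+ libraries and between 0.356 and 2.73 CPM in CD8+ libraries. Cd8a behaved in the opposite way, with 589.2 to 1339 CPM in CD8+ and 0.424 to 5.64 CPM in CD4+ libraries, and the labelled lineages were therefore borne out. As compared with WT, Cd8a fell in STAT3-/-PD-1-/- CD8+ T cells by 1.09 ± 0.12 (log2 fold change ± SE, adjusted p = 0.00414) and Cd8b1, the other CD8 chain, by 0.87 ± 0.11 (adjusted p = 0.00531), and Cd4 fell in STAT3-/-PD-1-/- CD4+ T cells by 0.52 ± 0.13 (adjusted p = 0.0375). The adjusted p-values here and below come from edgeR's quasi-likelihood test across all genes with Benjamini-Hochberg adjustment, 2 libraries per group, and 0.05 was the threshold.

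Of the 7 genes, 6 passed the filter on low counts in both lineages, and Gpr83 did not. Per unit of exon length, WT CD4+ T cells held 39.1 ± 9.49 RPKM of Nrp1 (the deposited read density per length and depth, mean ± SD, n = 2), 19.1 ± 2.62 of Entpd1, 8.41 ± 0.745 of Ikzf2, 6.63 ± 1.81 of Foxp3, 1.19 ± 0.450 of Ikzf4, 0.959 ± 0.198 of Lrrc32 and 0.0370 ± 0.00163 of Gpr83. The surface molecules Nrp1 and Entpd1 were thus the most abundant of the 7 transcripts, above the transcription factors. The plot of levels by library shows the 7 genes on separate axes.

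**Figure D1:**
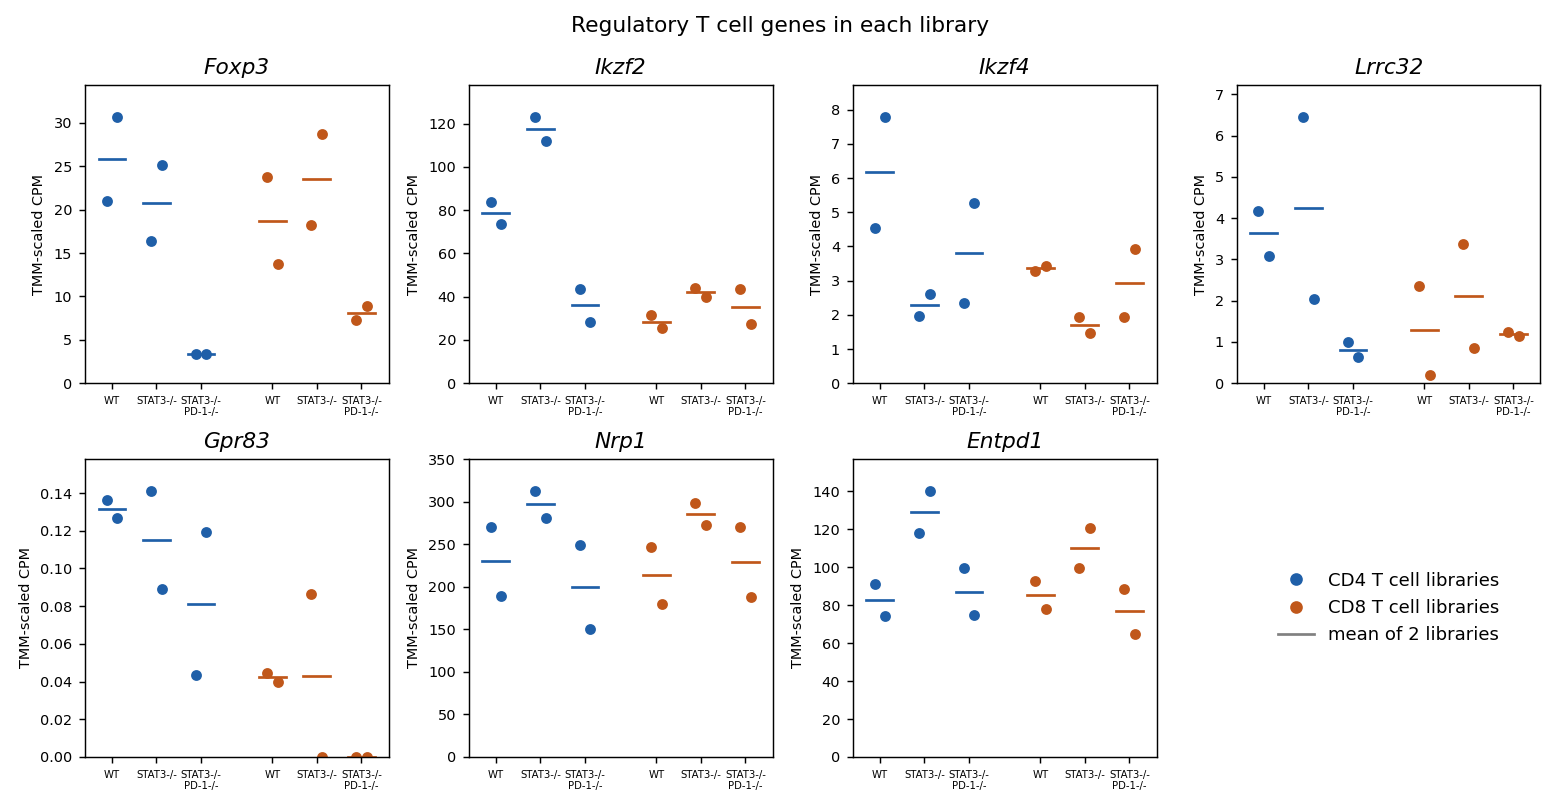
TMM-scaled CPM of each of the 7 genes (vertical axes from 0, different for each gene) in the 12 libraries, with points for libraries, horizontal bars for the mean of 2, CD4+ libraries in blue and CD8+ libraries in orange. Foxp3 sits at 3.38 and 3.42 CPM in STAT3-/-PD-1-/- CD4+ T cells and at 16.3 CPM or above in the other CD4+ libraries.

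As compared with WT, Foxp3 RNA was much lower in STAT3-/-PD-1-/- CD4+ T cells and did not pass the test in STAT3-/- CD4+ T cells. The WT libraries held 20.96 and 30.7 CPM (461 and 725 counts), the STAT3-/- libraries 16.3 and 25.1 CPM, and the STAT3-/-PD-1-/- libraries 3.38 and 3.42 CPM (78 and 86 counts). The first 2 groups overlapped, and both STAT3-/-PD-1-/- libraries lay below all 4 others. Foxp3 fell by 2.91 ± 0.31 on the log2 scale from WT to STAT3-/-PD-1-/- cells (7.49-fold, adjusted p = 0.00395), and by 2.59 ± 0.31 from STAT3-/- to STAT3-/-PD-1-/- cells (6.03-fold, adjusted p = 0.00728). Between libraries of the same number, the STAT3-/-PD-1-/- minus WT difference was -2.47 for replicate 1 and -2.99 for replicate 2. STAT3-/- cells differed from WT by -0.31 ± 0.28 (adjusted p = 0.796). In these bulk libraries, fewer cells carrying a transcript and less transcript per cell cannot be told apart. When either STAT3-/-PD-1-/- CD4+ library was left out, so that 1 library stood for the group, the fall remained 2.89 and 2.93 against WT but the adjusted p rose to 0.0562 without replicate 1 and to 0.0603 without replicate 2. Against STAT3-/-, the same omissions gave adjusted p-values of 0.058 and 0.102.

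Foxp3 RNA was also present in CD8+ T cells, and it was again lowest in the STAT3-/-PD-1-/- group. The values were 23.8 and 13.7 CPM in WT, 18.3 and 28.7 CPM in STAT3-/- and 7.29 and 8.94 CPM in STAT3-/-PD-1-/- CD8+ T cells. As in CD4+ T cells, WT and STAT3-/- libraries overlapped and both STAT3-/-PD-1-/- libraries lay below them. Foxp3 fell by 1.19 ± 0.32 from WT to STAT3-/-PD-1-/- CD8+ T cells (2.29-fold, adjusted p = 0.0458) and by 1.52 ± 0.33 from STAT3-/- (2.87-fold, adjusted p = 0.0241), whereas STAT3-/- differed from WT by 0.33 ± 0.31 (adjusted p = 0.763). The call against WT was lost without WT replicate 1 (-0.76, adjusted p = 0.155), without STAT3-/-PD-1-/- replicate 1 (-1.07, adjusted p = 0.189) or replicate 2 (-1.36, adjusted p = 0.156), and with limma on log2(RPKM + 1), where the fold change was -0.86 (adjusted p = 0.0809), or on log2(RPKM + 0.1), where it was -1.10 (adjusted p = 0.0646). The call against STAT3-/- was lost without STAT3-/- replicate 2 (-1.15, adjusted p = 0.0888) and without STAT3-/-PD-1-/- replicate 1 (-1.40, adjusted p = 0.107) or replicate 2 (-1.69, adjusted p = 0.131).

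Carry-over of CD4+ cells into the CD8+ sort was measured by Cd4 RNA. It amounted to 0.0191% to 0.213% of the mean of the CD4+ group of the same genotype. The mean Foxp3 level of the CD4+ group, multiplied by that share, comes to between 0.0014 and 0.02 CPM, and the CD8+ libraries held 7.29 to 28.7 CPM. Carry-over of CD4+ cells that differ from the group mean was not tested.

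**Figure D2:**
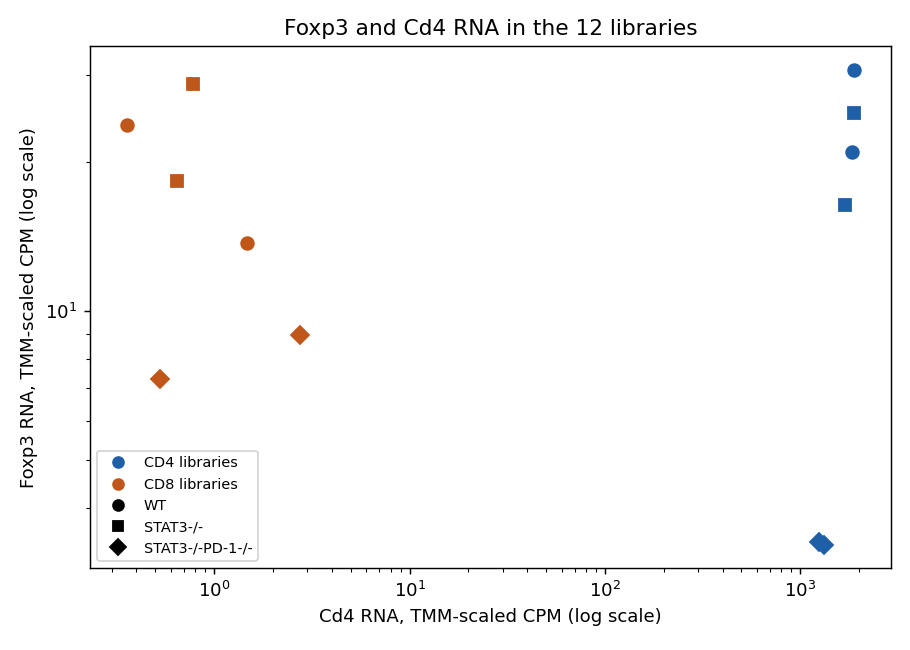
Foxp3 RNA against Cd4 RNA in TMM-scaled CPM (both axes log scale), 1 point per library, with color for lineage and shape for genotype. The CD8+ libraries lie at 0.356 to 2.73 CPM of Cd4 and the CD4+ libraries at 1242 CPM or above, while Foxp3 is within 3.38 to 30.7 CPM in all 12.

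In order, the mean Foxp3 level was 25.8 ± 6.89 CPM in WT CD4+ (SD, n = 2), 23.5 ± 7.42 in STAT3-/- CD8+, 20.7 ± 6.21 in STAT3-/- CD4+, 18.7 ± 7.08 in WT CD8+, 8.12 ± 1.16 in STAT3-/-PD-1-/- CD8+ and 3.40 ± 0.028 CPM in STAT3-/-PD-1-/- CD4+ T cells. Neighbors among the first 4 did not differ beyond their spread. The last 2 groups overlapped neither each other nor the first 4. On the genome, Foxp3 shares 1341 bases with the noncoding gene Flicr on its own strand and 1435 bases with Ccdc22 on the opposite strand, and the strand setting of the counting is not given in the sources used here. Flicr held 1 to 8 counts per library. Ccdc22 held 322 to 655 counts, with 411 and 424 in the STAT3-/-PD-1-/- CD4+ libraries where Foxp3 held 78 and 86.

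Ikzf2, at chr1:69531210-69685960 on the minus strand, fell in CD4+ T cells and passed no genotype test in CD8+ T cells. The CD4+ libraries held 84.0 and 73.4 CPM in WT, 123.1 and 111.8 CPM in STAT3-/- and 43.7 and 28.2 CPM in STAT3-/-PD-1-/- cells. The 3 genotypes did not overlap, with STAT3-/- highest and STAT3-/-PD-1-/- lowest. As compared with WT, Ikzf2 fell in STAT3-/-PD-1-/- cells by 1.11 ± 0.22 (2.16-fold, adjusted p = 0.0185). As compared with STAT3-/-, it fell by 1.69 ± 0.22 (3.23-fold, adjusted p = 0.00865). The higher level in STAT3-/- than WT cells, 0.58 ± 0.21, did not pass the test (adjusted p = 0.381). Without STAT3-/-PD-1-/- replicate 2, which was the lowest library, the falls were -0.84 against WT (adjusted p = 0.106) and -1.42 against STAT3-/- (adjusted p = 0.086), and without WT replicate 1 the fall against WT was -1.02 (adjusted p = 0.0604).

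In CD8+ T cells, Ikzf2 stood at 31.5 and 25.5 CPM in WT, 44.1 and 39.8 CPM in STAT3-/- and 43.4 and 27.5 CPM in STAT3-/-PD-1-/- libraries. The STAT3-/-PD-1-/- libraries lay within the range of the others. The log2 differences were 0.56 ± 0.22 for STAT3-/- against WT (adjusted p = 0.425), 0.32 ± 0.22 for STAT3-/-PD-1-/- against WT (adjusted p = 0.353) and -0.23 ± 0.22 for STAT3-/-PD-1-/- against STAT3-/- (adjusted p = 0.488).

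Ikzf4, at chr10:128630843-128645993 on the minus strand, had its lowest mean in STAT3-/- T cells of both lineages, but no comparison of genotypes passed the test without a replicate block. In CD4+ T cells it stood at 4.55 and 7.79 CPM in WT, 1.98 and 2.62 CPM in STAT3-/- and 2.34 and 5.28 CPM in STAT3-/-PD-1-/- libraries. The CD8+ values were 3.29 and 3.44 CPM, 1.94 and 1.47 CPM, and 1.95 and 3.92 CPM in the same order. Neither STAT3-/- group overlapped its WT group. The STAT3-/- against WT difference was -1.42 ± 0.46 in CD4+ (unadjusted p = 0.0162, adjusted p = 0.305 across all genes in edgeR, and 0.0399 at -1.39 with the replicate number as a block) and -0.98 ± 0.39 in CD8+ T cells (unadjusted p = 0.0381, adjusted p = 0.423 across all genes in edgeR).

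Lrrc32, at chr7:98494222-98501830 on the plus strand, was sparse, with 5 to 137 counts per library. CD4+ libraries held 4.18 and 3.09 CPM in WT, 6.45 and 2.05 CPM in STAT3-/- and 0.995 and 0.635 CPM in STAT3-/-PD-1-/- cells. Both STAT3-/-PD-1-/- libraries were below the other 4. Lrrc32 fell by 2.36 ± 0.57 from STAT3-/- to STAT3-/-PD-1-/- CD4+ T cells (5.11-fold, adjusted p = 0.0415), and the difference from WT was -2.13 ± 0.57 (4.38-fold), which missed the threshold by less than the third digit of its adjusted p and was called in 4 of 9 other settings with all libraries of the groups, DESeq2 among them (adjusted p = 0.00489), with adjusted p up to 0.132 and a smallest fall of -0.68 over the 9. When 1 library was left out, it was called in 2 of 6 cases, and its adjusted p was highest at 0.28, without STAT3-/-PD-1-/- replicate 2. The call against STAT3-/- was lost without STAT3-/- replicate 1, the highest library (-1.32, adjusted p = 0.1), without STAT3-/-PD-1-/- replicate 1 (-2.70, adjusted p = 0.127) and without replicate 2 (-2.07, adjusted p = 0.288). With all 12 libraries in 1 fit its adjusted p was 0.0986, and with limma it was -0.74 on log2(RPKM + 1) (adjusted p = 0.103) and -1.75 on log2(RPKM + 0.1) (adjusted p = 0.0622). CD8+ libraries held 2.36 and 0.20 CPM in WT, 3.37 and 0.859 CPM in STAT3-/- and 1.24 and 1.14 CPM in STAT3-/-PD-1-/- libraries. The groups overlapped, and no difference passed the test.

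Gpr83, at chr9:14860210-14870789 on the plus strand, was at the edge of detection. The CD4+ libraries held 3 and 3 counts in WT, 3 and 2 in STAT3-/- and 1 and 3 in STAT3-/-PD-1-/- cells, and the CD8+ libraries held 0 to 2. A floor of 3 counts corresponds to 0.119 to 0.141 CPM, which covers counting error only. No difference was detectable at this depth.

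Nrp1, at chr8:128359073-128505475 on the plus strand, and Entpd1, at chr19:40612366-40741602 on the plus strand, were abundant in every library and did not pass edgeR's test in any comparison when the replicate number was left out of the fit. With the replicate number as a block, both passed between STAT3-/-PD-1-/- and STAT3-/- CD4+ T cells, Nrp1 at -0.60 (adjusted p = 0.0237) and Entpd1 at -0.57 (adjusted p = 0.0418). Nrp1 stood at 270.4 and 189.5 CPM in WT, 312.9 and 281.1 CPM in STAT3-/- and 249.6 and 150.7 CPM in STAT3-/-PD-1-/- CD4+ T cells. In CD8+ T cells it stood at 246.5 and 180.2 CPM, 297.9 and 272.2 CPM, and 270.2 and 187.7 CPM in the same order. The STAT3-/- libraries were the highest in each lineage. STAT3-/-PD-1-/- differed from STAT3-/- by -0.55 ± 0.26 in CD4+ (adjusted p = 0.202) and by -0.31 ± 0.20 in CD8+ T cells (adjusted p = 0.327).

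Entpd1 stood at 91.3 and 74.5 CPM in WT, 118.1 and 140.4 CPM in STAT3-/- and 99.4 and 74.8 CPM in STAT3-/-PD-1-/- CD4+ T cells. For CD8+ libraries the values were 92.5 and 77.9 CPM, 99.7 and 120.6 CPM, and 88.6 and 64.9 CPM. As for Nrp1, both STAT3-/- libraries were above the other 4 of their lineage. For Entpd1 the STAT3-/- against WT difference was 0.65 ± 0.19 in CD4+ (adjusted p = 0.272) and 0.37 ± 0.18 in CD8+ T cells (adjusted p = 0.533). The STAT3-/-PD-1-/- against STAT3-/- difference was -0.55 ± 0.19 (adjusted p = 0.108) and -0.51 ± 0.18 (adjusted p = 0.0968), and DESeq2 called the latter (adjusted p = 0.0487).

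**Figure D3:**
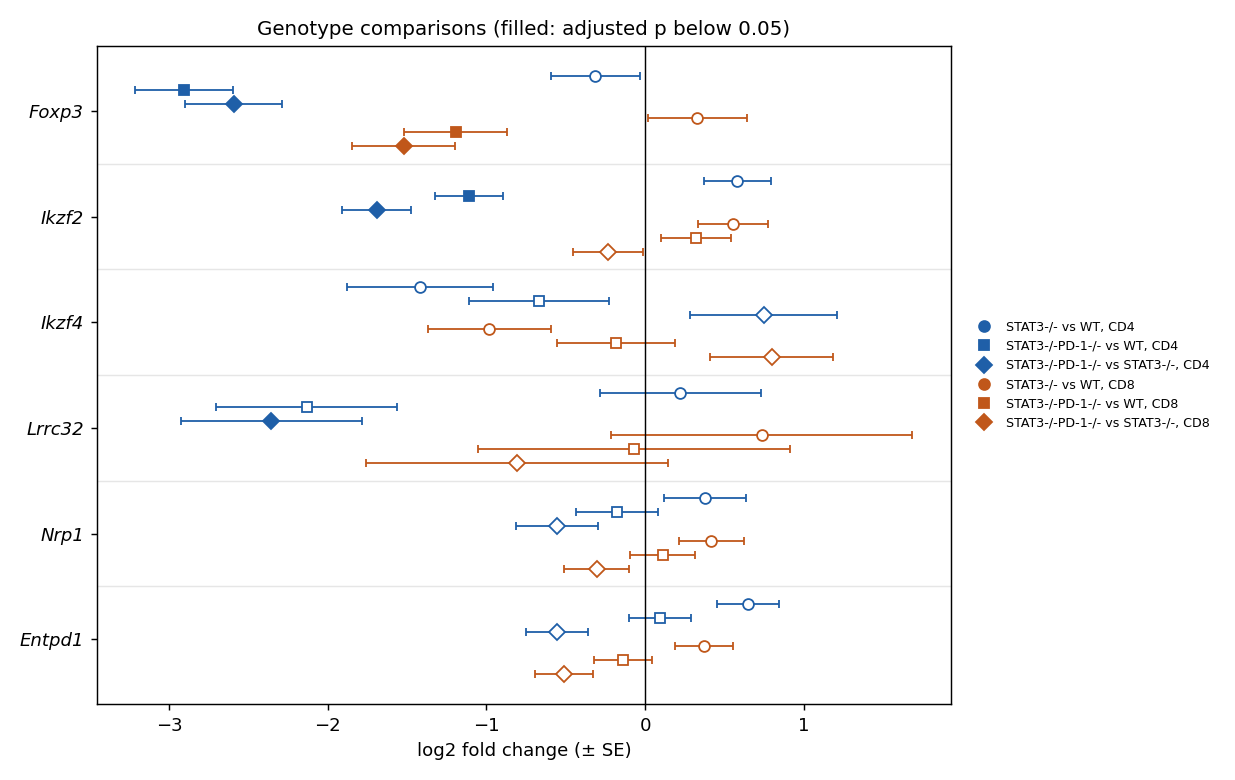
Log2 fold change (horizontal axis, ± SE) of the 6 genes that passed the filter in 6 genotype comparisons, with CD4+ T cells in blue, CD8+ T cells in orange, and filled symbols for adjusted p below 0.05 in edgeR. The filled symbols are Foxp3 in 4 comparisons, from -2.91 to -1.19, Ikzf2 in 2 and Lrrc32 in 1.

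The counts of calls were read against those of all genes tested. With STAT3-/-PD-1-/- set against WT in CD4+ T cells, 2 of the 6 tested genes were called (Foxp3 and Ikzf2), and 12.9% of all 11959 genes were. Between STAT3-/-PD-1-/- and STAT3-/- CD4+ T cells, 3 of 6 were called (Foxp3, Ikzf2 and Lrrc32), beside 11.1% of all genes. Among CD8+ libraries only Foxp3 was called in each of these comparisons, 1 of 6, beside 17.2% of all 12002 genes against WT and 16.8% against STAT3-/-, so that its share there was at the background. Between STAT3-/- and WT cells none of the 6 was called by edgeR without a replicate block or by DESeq2, beside 0.334% of all genes in CD4+ and 0.0583% in CD8+ T cells. At an unadjusted p below 0.05, 3 were in CD4+ (Ikzf2, Ikzf4 and Entpd1), beside 1259 of the 11959 genes, and 2 in CD8+ T cells (Ikzf2 and Ikzf4), beside 1315 of the 12002. All calls were toward lower levels in STAT3-/-PD-1-/- cells. The median log2 fold change of the 6 genes against WT came to -0.89 (CD4+) and -0.11 (CD8+), beside -0.01 and -0.001 for all genes. The comparisons within a lineage share libraries, so their values are not independent of each other.

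The lineages were then compared within each genotype. Ikzf2 was lower in CD8+ than in CD4+ T cells, by 1.47 ± 0.25 in WT (2.76-fold, adjusted p = 0.00417) and by 1.49 ± 0.25 in STAT3-/- cells (2.8-fold, adjusted p = 0.00447). In STAT3-/-PD-1-/- cells the lineages lay together, with a difference of -0.02 ± 0.24 (adjusted p = 0.988). Foxp3 had a CD8 minus CD4 difference of -0.46 ± 0.32 in WT (adjusted p = 0.475), 0.18 ± 0.32 in STAT3-/- (adjusted p = 0.827) and 1.26 ± 0.35 in STAT3-/-PD-1-/- cells (2.39-fold, adjusted p = 0.0854). In the last, both CD8+ libraries were above both CD4+ libraries. With the CD4+ and CD8+ libraries of the same genotype and number paired in a block, that difference was 1.26 with an adjusted p of 0.0368.

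Of the 6 genes, 1 was called between lineages in WT (Ikzf2), beside 10.5% of all 12334 genes, 1 in STAT3-/- (Ikzf2), beside 9.62%, and 0 in STAT3-/-PD-1-/- cells, beside 4.14%, where 1 (Foxp3) had an unadjusted p below 0.05 in edgeR and 1 was called by DESeq2. With the block, 3 were called in WT cells, since Ikzf4 (-0.85, adjusted p = 0.027) and Lrrc32 (-1.68, adjusted p = 0.0358) were also lower in CD8+ T cells, and the share of all genes called was 24.3%. Nrp1 and Entpd1 differed between lineages by -0.23 to 0.19 on the log2 scale in the 3 genotypes, and none of these differences passed the test.

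**Figure D4:**
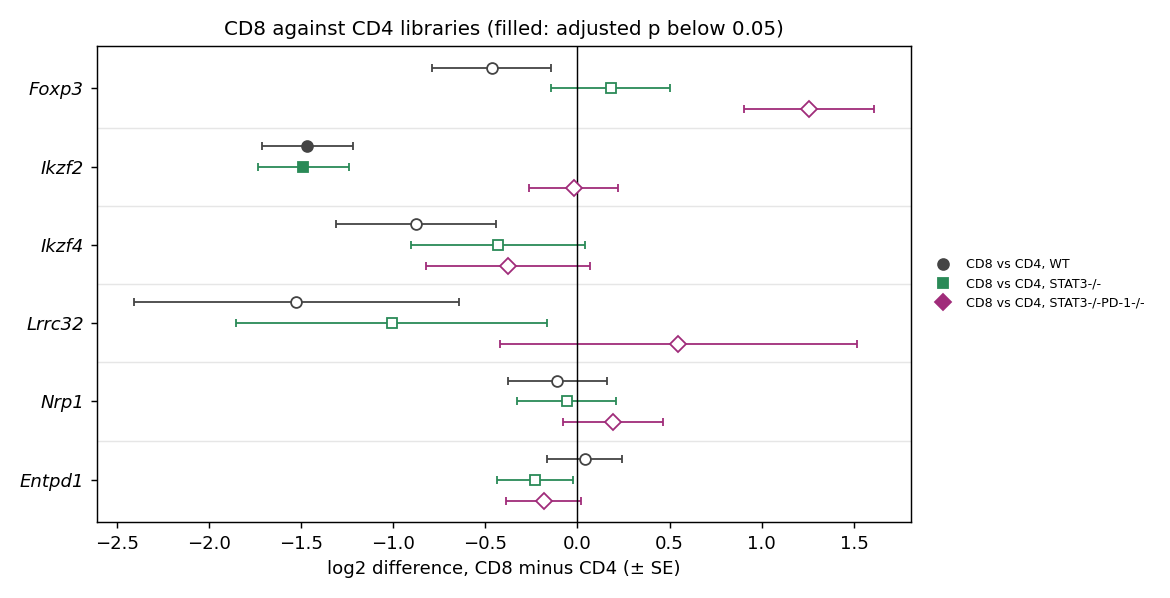
CD8 minus CD4 log2 difference (horizontal axis, ± SE) of the 6 genes that passed the filter, for each genotype, with filled symbols for adjusted p below 0.05 in edgeR. For Ikzf2 the WT value is -1.47, the STAT3-/- value -1.49 and the STAT3-/-PD-1-/- value -0.02, and Foxp3 moves from -0.46 to 1.26.

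Whether the genotype effect itself differed between lineages was tested as an interaction. From WT to STAT3-/-PD-1-/- cells, the Foxp3 change was 1.72 ± 0.48 less negative in CD8+ than in CD4+ T cells (unadjusted p = 0.00472, adjusted p = 0.431 in edgeR), and the Ikzf2 change differed by 1.44 ± 0.35 (unadjusted p = 0.00178, adjusted p = 0.279 in edgeR). From STAT3-/- to STAT3-/-PD-1-/- cells the differences were 1.08 ± 0.48 for Foxp3 (adjusted p = 1 in edgeR) and 1.47 ± 0.34 for Ikzf2 (adjusted p = 0.638 in edgeR). None of the 6 genes passed the adjusted threshold. For Ikzf2 the interaction did pass with the block of paired lineages (adjusted p = 0.00488 against WT and 0.0147 against STAT3-/-) and with DESeq2 (adjusted p = 0.0123 and 0.0219). Few genes of any kind were called in these 3 interactions. The share was 0.00811% from WT to STAT3-/-PD-1-/- cells and 0% in each of the other 2, with 547, 228 and 443 genes at an unadjusted p below 0.05 from WT to STAT3-/-PD-1-/-, from WT to STAT3-/- and from STAT3-/- to STAT3-/-PD-1-/- cells. DESeq2 called 75, 5 and 21 genes in the same order.

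The pathways of which the 7 genes are part were described next, from lists of genes that act in them. Because these lists were chosen with earlier results of these data known, a share above that of all genes is a description only. Among 19 further receptors typical of regulatory T cells, 2 rose and 5 fell in STAT3-/-PD-1-/- against WT CD4+ T cells, 7 of 19 called beside 12.9% of all genes. The largest fall was that of Itgae, which encodes the CD103 integrin chain, from 7.04 ± 0.70 to 1.18 ± 0.075 CPM (SD, n = 2; log2 fold change -2.55 ± 0.27, adjusted p = 0.00389). Nt5e, which encodes the ecto-5′-nucleotidase CD73, fell from 61.4 ± 2.28 to 18.3 ± 2.75 CPM (-1.72 ± 0.21, adjusted p = 0.00515), and the costimulatory receptor Icos fell from 1280.5 ± 244.7 to 511.4 ± 100.8 CPM (-1.30 ± 0.26, adjusted p = 0.0204). The STAT3-/- CD4+ libraries held 873 and 528.7 CPM of Icos. Its difference was -0.87 ± 0.26 from WT to STAT3-/- (adjusted p = 0.268) and -0.44 ± 0.26 from STAT3-/- to STAT3-/-PD-1-/- cells (adjusted p = 0.301). Il1rl1, the IL-33 receptor, and the inhibitory receptor Tigit fell as well, by 0.81 ± 0.15 and 0.59 ± 0.13. Tnfrsf9, the costimulatory receptor 4-1BB, rose from 102.7 ± 14.8 to 198.8 ± 25.1 CPM (0.98 ± 0.20, adjusted p = 0.021), and the tetraspanin Cd81 rose by 1.72 ± 0.32 (adjusted p = 0.0164). Il2ra, the high-affinity IL-2 receptor chain CD25 by which regulatory T cells are often sorted, differed from WT by 0.18 ± 0.17 (adjusted p = 0.527). It was higher in STAT3-/-PD-1-/- than in STAT3-/- CD4+ T cells, 313.1 ± 51.5 against 178.3 ± 17.3 CPM (0.83 ± 0.17, adjusted p = 0.0263). In all, 12 of the 19 did not pass against WT in CD4+ T cells. Among them were Ctla4, at -0.56 ± 0.63 (adjusted p = 0.605), and Tnfrsf18, at -0.34 ± 0.18 (adjusted p = 0.262). The median over these 19 genes was -0.23 against WT, with -0.01 for all genes.

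In CD8+ T cells, 4 of the 19 receptors rose and 4 fell against WT, beside 17.2% of all genes called. Itgae fell by 2.87 ± 0.34 (adjusted p = 0.00493), Icos by 1.16 ± 0.21 (adjusted p = 0.0139), and the chemokine receptor Cxcr3 by 0.92 ± 0.13 (adjusted p = 0.00679). For Icos the difference was -0.82 ± 0.21 from WT to STAT3-/- (adjusted p = 0.277) and -0.33 ± 0.21 from STAT3-/- to STAT3-/-PD-1-/- cells (adjusted p = 0.29). Cd81 rose by 2.82 ± 0.32 (adjusted p = 0.00472), and the chemokine receptors Ccr8 and Ccr4 rose by 1.94 ± 0.34 (adjusted p = 0.0128) and 1.58 ± 0.31 (adjusted p = 0.0175). The members of the list therefore moved in both directions in each lineage.

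Of 18 tested effector genes, 2 rose and 5 fell in STAT3-/-PD-1-/- against WT CD4+ T cells, beside 12.9% of all genes called. Fgl2, a secreted suppressor of dendritic cells and T cells, fell from 116.6 ± 35.2 to 15.4 ± 3.40 CPM (-2.90 ± 0.25, adjusted p = 0.00237). Maf, a transcription factor that drives Il10, fell from 396.8 ± 22.4 to 112 ± 28.6 CPM (-1.81 ± 0.19, adjusted p = 0.00395). Il10 itself, in the same list, differed from WT by -0.003 ± 0.88 in CD4+ (adjusted p = 0.999) and 0.85 ± 0.72 in CD8+ T cells (adjusted p = 0.455). Its replicates lay far apart, at 108.2 and 30.66 CPM in WT and 105.9 and 30.46 CPM in STAT3-/-PD-1-/- CD4+ libraries. The genes that rose were Penk, which encodes proenkephalin, by 2.51 ± 0.50 (adjusted p = 0.0201), and the zinc finger gene Plagl1, by 2.86 ± 0.64 (adjusted p = 0.0288). Among CD8+ T cells 2 rose and 3 fell, 5 of 18 beside 17.2% of all genes. Fgl2 fell by 2.94 ± 0.24 (adjusted p = 0.00226), Maf by 2.30 ± 0.19 (adjusted p = 0.00226) and the cytotoxic protease gene Gzmb by 1.25 ± 0.16 (adjusted p = 0.00529). Gzmb was already lower in STAT3-/- CD8+ libraries, at 2217 and 1846 CPM. WT held 5213 and 4207 CPM and STAT3-/-PD-1-/- 2190 and 1735 CPM. Its difference was -1.22 ± 0.16 from WT to STAT3-/- (adjusted p = 0.097) and -0.04 ± 0.15 from STAT3-/- to STAT3-/-PD-1-/- cells (adjusted p = 0.885). Penk rose by 3.81 ± 0.53 (adjusted p = 0.00734), as did Ebi3, a subunit of IL-27 and IL-35, by 3.18 ± 0.39 (adjusted p = 0.00511).

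Among 35 genes whose products control Foxp3 transcription or its signals, 2 rose and 7 fell in STAT3-/-PD-1-/- against WT CD4+ T cells, and 2 rose and 9 fell in CD8+ T cells. These were 9 and 11 of 35 genes, beside 12.9% and 17.2% of all genes. Smad3, a transducer of TGF-β signals, fell from 165.8 ± 3.41 to 72.2 ± 8.43 CPM in CD4+ (-1.18 ± 0.16, adjusted p = 0.00629) and by 1.03 ± 0.14 in CD8+ T cells (adjusted p = 0.00651), and the TGF-β receptor Tgfbr2 fell by 0.71 ± 0.15 (adjusted p = 0.0237) and 0.79 ± 0.10 (adjusted p = 0.00595). Smad2, Smad4 and Tgfbr1, which act in the same pathway and are in the same list, did not pass in either lineage, with CD4+ values of -0.29 ± 0.16, -0.40 ± 0.20 and -0.25 ± 0.16 (adjusted p = 0.269, 0.236 and 0.354) and CD8+ values of -0.17 ± 0.13, -0.31 ± 0.13 and 0.004 ± 0.15 (adjusted p = 0.42, 0.141 and 0.988). Satb1, a chromatin organizer that opens the Foxp3 locus in precursor cells, fell by 1.26 ± 0.17 in CD4+ (adjusted p = 0.00692) and by 0.87 ± 0.11 in CD8+ T cells (adjusted p = 0.00592). In CD4+ T cells its difference was -0.72 ± 0.17 from WT to STAT3-/- (adjusted p = 0.184). From STAT3-/- to STAT3-/-PD-1-/- CD4+ T cells it was -0.535 ± 0.17 (adjusted p = 0.0869). The genes that rose were the maintenance DNA methyltransferase Dnmt1, by 0.85 ± 0.17 and 0.57 ± 0.11, and its recruiter Uhrf1, by 1.21 ± 0.14 and 0.77 ± 0.14, all with adjusted p at or below 0.0199. Both are also genes of DNA replication. The list median was -0.38 (CD4+) and -0.28 (CD8+), beside -0.01 and -0.001 for all genes.

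Around Entpd1, the adenosine pathway moved in both directions. Of 8 tested genes, 2 rose and 2 fell against WT in CD4+ T cells, and 2 rose and 1 fell in CD8+ T cells, beside 12.9% and 17.2% of all genes called. Nt5e, whose product takes the AMP made by ENTPD1 to adenosine, fell in CD4+ T cells as given above, while Entpd1 itself differed from WT by 0.09 ± 0.19 (adjusted p = 0.796). Adenosine kinase, Adk, rose by 1.37 ± 0.24 in CD4+ (adjusted p = 0.0139) and 0.90 ± 0.13 in CD8+ T cells (adjusted p = 0.00794), and the nucleoside transporter Slc29a1 rose by 0.62 ± 0.15 (adjusted p = 0.0381) and 0.46 ± 0.12 (adjusted p = 0.0412). Dpp4, which encodes the adenosine deaminase-binding protein CD26, fell by 1.18 ± 0.16 (adjusted p = 0.00699) and 0.85 ± 0.17 (adjusted p = 0.0172).

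Around Nrp1, the plexins Plxna1 and Plxnd1, which pair with neuropilins as semaphorin receptors, rose in both lineages against WT, by 1.33 ± 0.30 (adjusted p = 0.0286) and 1.08 ± 0.26 (adjusted p = 0.035) in CD4+ and by 1.69 ± 0.23 (adjusted p = 0.00664) and 1.31 ± 0.16 (adjusted p = 0.00493) in CD8+ T cells. The ligand Sema4a fell by 0.92 ± 0.19 (adjusted p = 0.0222) and 0.80 ± 0.11 (adjusted p = 0.00696). Of the list, 2 of 10 tested genes rose and 1 fell in CD4+, and 4 of 11 rose and 2 fell in CD8+ T cells, beside the same shares of all genes. Around Lrrc32, the genes of TGF-β activation moved in both directions, with 1 of 9 tested that rose and 1 that fell in CD4+ and 1 of 8 that rose and 1 that fell in CD8+ T cells, beside 12.9% and 17.2% of all genes called. Tgfb3, a TGF-β isoform, fell from 18.1 ± 0.32 to 2.72 ± 0.81 CPM among CD4+ T cells (-2.72 ± 0.26, adjusted p = 0.00312), with a CD8+ fall of 1.70 ± 0.34 (adjusted p = 0.0177). Tgfb2, another isoform, rose among CD4+ T cells from 0.174 ± 0.0533 to 0.871 ± 0.0530 CPM (2.30 ± 0.53, adjusted p = 0.0309), and Furin, a protease that processes TGF-β precursors, rose among CD8+ T cells by 0.91 ± 0.23 (adjusted p = 0.0391). The WT CD4+ libraries held 0.136 and 0.212 CPM of Tgfb2, near the floor of 3 counts, which corresponds to 0.136 and 0.127 CPM there. Among the Ikaros family, Ikzf3 (Aiolos) fell from STAT3-/- to STAT3-/-PD-1-/- cells by 1.11 ± 0.26 in CD4+ (adjusted p = 0.0372) and by 0.93 ± 0.14 in CD8+ T cells (adjusted p = 0.00991). Against WT, Ikzf3 in STAT3-/-PD-1-/- cells differed by 0.01 ± 0.26 in CD4+ (adjusted p = 0.987) and fell by 0.64 ± 0.14 in CD8+ T cells (adjusted p = 0.0253), while the STAT3-/- CD4+ libraries held 503.1 and 655.4 CPM and the WT libraries 241.9 and 293.1 CPM (adjusted p = 0.169). In the FOXP family, Foxp3 was the 1 gene called of the 3 tested in STAT3-/-PD-1-/- against WT cells of each lineage, beside 12.9% (CD4+) and 17.2% (CD8+) of all genes. Between STAT3-/- and WT cells, none of the genes of these lists was called in either lineage by edgeR with the main filter and no replicate block. With the replicate number as a block, edgeR called Ikzf4 of the Ikaros family in CD4+ T cells (-1.39, adjusted p = 0.0399). DESeq2, which called 2.27% of all genes in CD4+ and 1.82% in CD8+ T cells, called Bach2, Ecm1, Gzmb, Ikzf3, Il2ra, Klrg1, Plxnd1, Satb1 and Tgfb3 in CD4+ and Bach2, Dnmt1, Fgl2, Gzmb, Icos, Jak3, Klrg1, Plxnd1, Satb1 and Sema4d in CD8+ T cells.

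**Figure D5:**
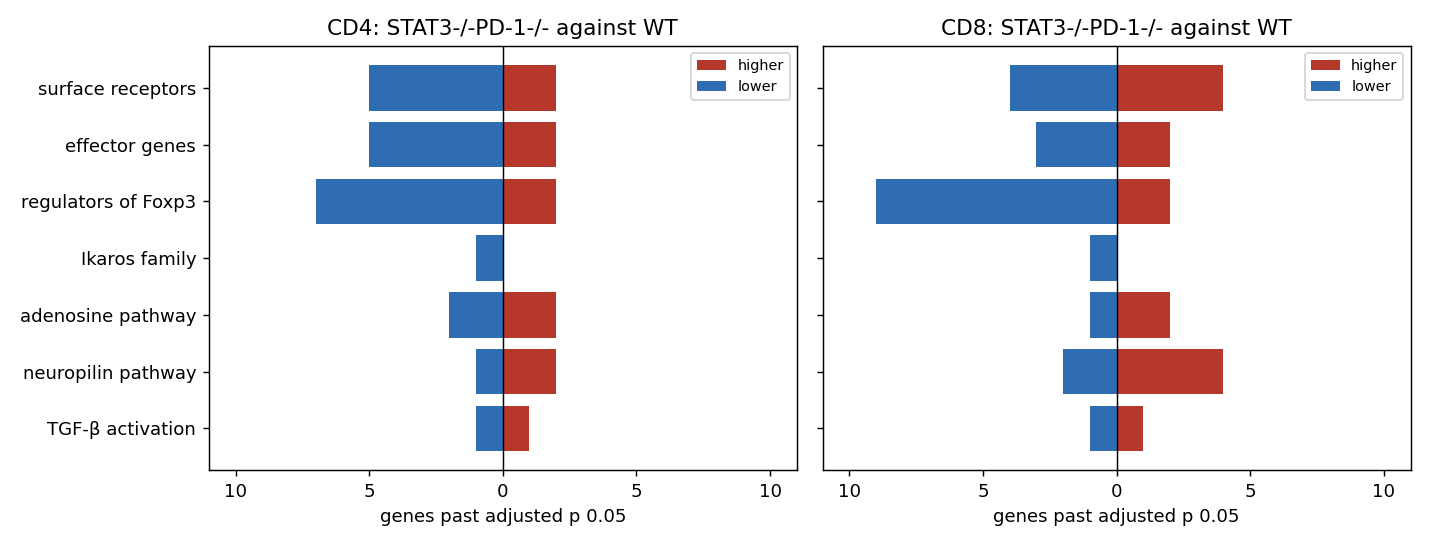
Number of genes of each list (horizontal axis) that rose (red, to the right) or fell (blue, to the left) past an adjusted p of 0.05 in STAT3-/-PD-1-/- against WT cells, CD4+ on the left and CD8+ on the right. Genes that rose are present in 6 of the 7 lists plotted in each lineage, all but the Ikaros family, and the FOXP family, with 0 that rose, is not plotted.

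Markers of other liver and blood cells were read in the same libraries, since endothelial cells express Nrp1 and myeloid cells express Entpd1. The 14 endothelial markers summed to 168 to 199 CPM in CD4+ and 116 to 132 CPM in CD8+ libraries, of which Pecam1, also expressed by T cells, made up 110 to 198 CPM, and 9 of the 14 were below 1 CPM in all 12 libraries. Of those tested by edgeR, 3 in CD4+ and 6 in CD8+ libraries, 1 rose in STAT3-/-PD-1-/- against WT cells in each lineage and 0 fell. The same counts held against STAT3-/- cells. Egfl7 stood at 0.364 and 0.254 CPM in WT and 1.17 and 1.95 CPM in STAT3-/-PD-1-/- CD4+ libraries. In CD8+ libraries it stood at 1.16 and 0.879 CPM and at 4.95 and 5.51 CPM. The 14 macrophage markers summed to 7.91 to 39.9 CPM, led by Cd68, and 6 of them were below 1 CPM throughout. Their median log2 fold change against WT was -2.19 in CD4+ and -2.45 in CD8+ STAT3-/-PD-1-/- cells over the 8 tested, with 0 and 1 called by edgeR. Without WT replicate 2 the macrophage median came to 0.43 in CD4+ cells, so the CD4+ fall rested on that library. In CD8+ cells the median came to -0.37, so a smaller fall remained there. The CD8+ sums were 30.6 and 39.9 CPM in WT and 17.9 and 19.7 CPM in STAT3-/-PD-1-/- cells. Of these, Cd68 made up 29.1 and 28.9 CPM in WT and 16.9 and 18.3 CPM in STAT3-/-PD-1-/- CD8+ libraries. The Kupffer cell marker Clec4f stood at 0.0909 and 1.65 CPM in the WT and 0.0433 and 0.238 CPM in the STAT3-/-PD-1-/- CD4+ libraries, and the CD4+ sums were 10.2 and 19.9 CPM in WT and 10.1 and 12 CPM in STAT3-/-PD-1-/- cells. In CD8+ T cells Clec4f stood at 0.222 and 1.48 CPM in WT and 0.221 and 0.0816 CPM in STAT3-/-PD-1-/- libraries. The 9 dendritic cell markers summed to 406 and 377 CPM in WT CD8+ libraries and to 40.1 and 33.8 CPM in STAT3-/-PD-1-/- CD8+ libraries, in which Itgax (CD11c), which activated CD8+ T cells also express, made up 392 and 363 CPM in WT and 27.8 and 20.2 CPM in STAT3-/-PD-1-/- libraries. Siglech and Cd209a were at 0 in all 12. The 7 B cell markers summed to 1.67 to 14.7 CPM, led by Cd79b, with Ms4a1 at 0. Cd79b stood at 14.5 and 10.6 CPM in WT and 5.92 and 5.1 CPM in STAT3-/-PD-1-/- CD8+ libraries. The 1 B cell marker tested by edgeR was called lower in STAT3-/-PD-1-/- CD8+ cells, by -1.18 against WT and -1.23 against STAT3-/-. It was not called in CD4+ cells. Summed hepatocyte markers were at 1.6 to 6.25 CPM, stellate cell markers at 0.489 to 1.65 CPM, neutrophil markers at 0.141 to 1.19 CPM with Elane at 0, platelet markers at 0.751 to 2.45 CPM, and erythroid markers at 0.0399 to 0.736 CPM with the 4 globin genes at 0. The part of these cells in the values of the 7 genes was not tested.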

How the data were processed

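Gene-level counts came from STAR alignment to mm10 and HTSeq-count on RefSeq genes, and the authors deposited them raw, one whole number per gene and library. RPKM values (read density per exon length and library depth) were deposited beside them by the authors and were used only to compare levels between genes and in an alternative test. Genotype comparisons were fitted with edgeR 4.0.16 (filterByExpr, minimum count 10 and minimum total 15, TMM scaling, quasi-likelihood test, Benjamini-Hochberg adjustment over all genes) on the 6 libraries of a lineage, and lineage comparisons and interactions on all 12. SE is the absolute log2 fold change divided by the square root of F. Each group held 2 libraries, and no label says that they came from separate cultures, recipients or dates. The library numbers in the titles fall in 2 runs that coincide with replicates 1 and 2, without a statement of what they mark. The study describes its day 6 liver assays, RNA sequencing among them, as pooled over at least 2 repeat experiments, without assigning libraries to them, so p-values measure the spread between these pools. With 2 against 2, an exact permutation test cannot go below p = 0.333. Replicate pairs differed well beyond counting noise, with chi-square per gene of 29.6 to 84.6.

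CD4+ and CD8+ libraries of 1 genotype and number deviated together (r over genes of 0.652, 0.65 and 0.831), so they were also fitted as pairs, although no label states it. The genes described were all 7, the check genes, and from each list up to 5 that rose and 5 that fell most among those called, of which examples are given. The 7 genes and all lists were chosen with earlier results of these data known. The alternatives were DESeq2 1.42.0, RLE scaling, other filters, blocks, limma 3.58.1 on log2(RPKM + 1) or log2(RPKM + 0.1), other sets of libraries and leaving out each library. The edgeR and DESeq2 fits were also run on simulated data, and no outcome of those runs is used here. Some single markers of the other cell types are not reported here.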

Additional observations from a re-analysis of the deposited data

How the results depend on the processing

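With the replicate number as a block in edgeR, which assumes a pairing, 1 of the 6 genes (Ikzf4) was called between STAT3-/- and WT CD4+ T cells in place of 0, beside 2.53% of all genes, and 5 (all but Ikzf4) between STAT3-/-PD-1-/- and STAT3-/- CD4+ T cells in place of 3, beside 26%. The block also gave 1 (Foxp3) between lineages in STAT3-/-PD-1-/- cells, beside 7.61%, and 1 (Ikzf2) for the WT to STAT3-/-PD-1-/- interaction, beside 0.227%. Same-numbered libraries deviated together at r = 0.219 to 0.786 between CD4+ genotypes and at r = 0.046 to 0.791 between CD8+ genotypes, and no label says that the number marks a batch. With paired lineages as a block, 3 were called in WT and 1 in STAT3-/-PD-1-/- cells between lineages, beside 24.3% and 14.4% of all genes, and 1 (Ikzf2) in each interaction that involves STAT3-/-PD-1-/- cells, beside 0.681% from WT and 0.178% from STAT3-/-. DESeq2 called 2 (Foxp3 and Entpd1) between STAT3-/-PD-1-/- and STAT3-/- CD8+ T cells, beside 23.4%, 1 (Foxp3) between lineages in STAT3-/-PD-1-/- cells, beside 6.15%, and 1 (Ikzf2) in each of these 2 interactions, beside 0.608% and 0.17%. Testing all genes with at least 1 count called Foxp3 (1) between lineages in STAT3-/-PD-1-/- cells, beside 3.7%, and Ikzf2 (1) for the WT to STAT3-/-PD-1-/- interaction, beside 0.283%. With limma on log2(RPKM + 1), 0 were called between STAT3-/-PD-1-/- and WT CD8+ T cells, beside 16.8%. Leaving out 1 library gave 0 to 3 called genes for STAT3-/-PD-1-/- against WT and 0 to 3 against STAT3-/- in CD4+ T cells, and 0 to 1 for each in CD8+ T cells. The causes of these differences were not tested.

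Foxp3 and Ikzf2 kept the sign of every genotype call under every alternative run. Signs turned among values that had not passed the test. Between STAT3-/-PD-1-/- and WT CD8+ T cells, Lrrc32 was at 0.34 with the replicate block, 0.015 with limma on log2(RPKM + 1) and 0.341 on log2(RPKM + 0.1). When 1 library was left out, this value ran from -0.985 to 2.54, and for the same contrast that of Ikzf2 from -0.054 to 0.605, Ikzf4 from -0.79 to 0.22, Nrp1 from -0.19 to 0.34 and Entpd1 from -0.39 to 0.057. In CD4+ T cells it ran for Nrp1 from -0.58 to 0.13 and for Entpd1 from -0.12 to 0.27. From STAT3-/- to STAT3-/-PD-1-/- CD8+ T cells, Ikzf2 ran from -0.61 to 0.049 and Lrrc32 from -1.48 to 0.47. From WT to STAT3-/- cells, Lrrc32 ran from -0.81 to 0.82 in CD4+ and from -0.54 to 3.35 in CD8+ T cells, and Foxp3 from -0.044 to 0.77 in CD8+ T cells. Between lineages, Foxp3 ran from -0.20 to 0.53 in STAT3-/- and Ikzf2 from -0.375 to 0.32 in STAT3-/-PD-1-/- cells.

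Counts over all genes moved more. Between STAT3-/- and WT cells, DESeq2 called 271 genes in CD4+ and 218 in CD8+ T cells where edgeR called 40 and 7. With the replicate block, edgeR called 303 between STAT3-/- and WT, 3104 in place of 1538 between STAT3-/-PD-1-/- and WT and 3105 in place of 1324 between STAT3-/-PD-1-/- and STAT3-/- CD4+ T cells. Without 1 of the STAT3-/-PD-1-/- CD4+ libraries these 2 counts dropped to 62 and 0 at the lowest. Without STAT3-/-PD-1-/- CD8+ replicate 2, the CD8+ counts dropped from 2066 to 111 against WT (0.903% of all genes) and from 2017 to 2 against STAT3-/- (0.0163%). The lists lost calls with them, in fits to the lists that were chosen after seeing the data. Without STAT3-/-PD-1-/- CD4+ replicate 2, Fgl2, Maf and Tgfb3 were the only genes of the pathway lists still called against WT in CD4+ T cells, and without STAT3-/-PD-1-/- CD8+ replicate 2, Fgl2 and Maf in CD8+ T cells. Gpr83, with 3 or fewer counts per library, is limited by depth. Lrrc32 held 53 and 5 counts in the 2 WT CD8+ libraries, and Ikzf4 36 to 184 counts per library.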

Other observations

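The genes whose log2 level followed each of the 6 tested members (all but Gpr83) most closely over the 6 CD4+ libraries were listed among 10363 genes with a mean of at least 1 on the log2 CPM scale, as a description of 6 points that share their libraries and 3 genotypes. For Foxp3 they were Rnasek (Pearson r = 0.999), Mgat5 (r = 0.9975) and Ankrd12 (r = 0.9969). Mgat5, which encodes an N-glycan branching enzyme, stood at 22.2 and 25.3 CPM in WT, 19.7 and 22.9 CPM in STAT3-/- and 12.3 and 11.6 CPM in STAT3-/-PD-1-/- libraries, a smaller range than that of Foxp3. For Ikzf2 they were Otub2 (r = 0.9974), Trappc8 (r = 0.9959) and Trim12a (r = 0.9956), for Lrrc32 Gmfg (r = 0.996), Zfp617 (r = 0.9894) and Anxa1 (r = 0.9863), and for Ikzf4 Myd88 (r = 0.9918), Ccdc157 (r = 0.9905) and Setd4 (r = 0.9897). For Nrp1 they were Pknox1 (r = 0.9935), Dcun1d2 (r = 0.9904) and Sptlc2 (r = 0.9892), and for Entpd1 Wars2 (r = 0.9994), Aldh4a1 (r = 0.9967) and Snx27 (r = 0.9902).

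Itgax, the CD11c integrin gene, stood at 392 and 363 CPM in WT, 220 and 243 CPM in STAT3-/- and 27.8 and 20.2 CPM in STAT3-/-PD-1-/- CD8+ T cells. In CD4+ T cells it stood at 70.5 and 62.2 CPM, 25.9 and 27.7 CPM, and 4.98 and 5.72 CPM in the same order. In each lineage the 3 genotypes did not overlap, in contrast to Foxp3, for which WT and STAT3-/- libraries did.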
